A study of Mus musculus with 2 samples.

Results

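The 10 genes described here encode proteins that lie along or cap the actin filament: the tropomyosins Tpm1, Tpm2, Tpm3 and Tpm4, the tropomodulins Tmod1, Tmod3 and Tmod4, and the leiomodins Lmod1, Lmod2 and Lmod3. They were taken by name, out of 21933 protein-coding genes in the GENCODE vM21 annotation, and followed through the accessible regions called within 50 kb of any of their annotated transcript starts, each start by itself. They have 65 transcripts with 63 distinct start positions, out of 93504 starts of protein-coding genes. Replicate 1 gave 131 accessible regions (peaks) near them out of 94295, with 278 footprints inside those peaks out of 210189 footprints in its list, and replicate 2 gave 134 peaks out of 123291, with 380 footprints out of 335055.

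The assay was DNase-seq, which sequences the ends left where the nuclease DNase I cuts open, nucleosome-free DNA. The tissue was gastrocnemius, a calf muscle, from male mice of the hybrid strain B6CASTF1/J, a cross of C57BL/6J and CAST mice, at 4 days of age, with no treatment named, and each label speaks of 3 males. There was 1 group with 2 biological replicates that share a donor entry, so values are levels in these libraries, with no contrast and no test, and whether the replicates came from separate animals is not said. The tissue holds muscle fibres, satellite cells, vessels, nerves and connective tissue, and a low density can mean that few cells opened a region or that it was less accessible in each cell, which cannot be told apart in bulk tissue.

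Tropomyosins are coiled-coil dimers that lie end to end in the groove of the actin filament, and in striated muscle they work with troponin to gate the access of myosin to actin. The tropomyosin genes make long and short proteins: in Tpm1 and Tpm3 the long ones, which include the sarcomeric isoforms, begin at an upstream start, and the short ones of the cytoskeleton begin at a start inside the gene. Tropomodulins cap the slow-growing (pointed) end of the thin filament, and leiomodins, their relatives, seed actin filaments and let them lengthen. Among the 10 genes, Tpm1, Tpm2, Tpm3, Tmod1, Tmod4, Lmod2 and Lmod3 are known for roles in striated muscle, Lmod1 for smooth muscle, and Tpm4 and Tmod3 for the cytoskeleton of many cells.

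The strongest promoters of the group were those of Tpm1, Tmod3 and Tpm3, and the weakest were those of Lmod2, Lmod3 and Tmod4. The promoter window reached 500 bp to each side of a start, and a gene counted as open where a peak touched it. Peaks carry the authors' cut density, and a peak's rank is the percentile of its density within its own library, from 0 to 100. Both libraries called a promoter peak for 8 of the 10 genes, against 65.2% of all protein-coding genes. Tmod4 had one in replicate 1 alone and Lmod3 in replicate 2 alone. The strongest promoter peak had a rank of 99.1 in replicate 1 and 99.8 in replicate 2 for Tpm1, which gives 99.4 ± 0.522 (SD, n = 2). The mean rank was 95.2 ± 0.89 for Tmod3 and 94.2 ± 0.401 for Tpm3 (SD, n = 2). These were the 3 genes above 92.1, the median over all protein-coding genes with a promoter peak in both libraries. For Tpm1 and Tpm3 this rests on internal starts: with the most upstream start alone Tpm1 had 89.5 and Tpm3 had no promoter peak. Tpm2 followed with 89.8 ± 1.02, Tpm4 with 84.5 ± 2.74, Tmod1 with 82.1 ± 2.49, Lmod1 with 74.0 ± 3.62 and Lmod2 with 33.4 ± 2.41 (SD, n = 2 each). Of the neighbours in this order, Tpm4 and Tmod1 overlapped, since 82.6 in replicate 2 of Tpm4 lay between 80.3 and 83.8 of Tmod1. Tmod3, with 94.6 and 95.8, lay just above Tpm3, with 93.9 and 94.5, and the gap between their means was close to the SD of Tmod3. The other neighbours did not overlap, which with 2 libraries is a description.

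**Figure D1:**
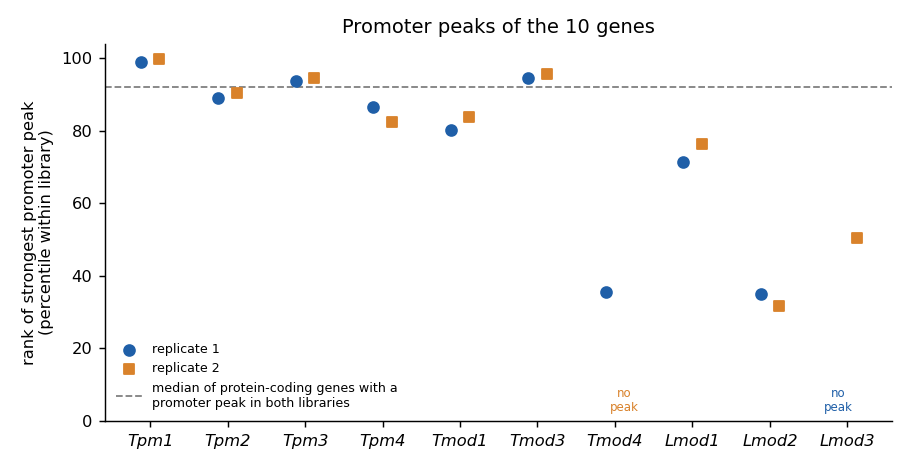
Rank of the strongest promoter peak of each gene within its library (vertical axis, percentile), with 1 point for each library and the median of all protein-coding genes with a promoter peak in both libraries as a dashed line. Tpm1, Tpm3 and Tmod3 lie above the line at 92.1 in both libraries, Lmod2 lies at 35.1 and 31.7, and Tmod4 and Lmod3 each lack a promoter peak in 1 library.

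Tpm1 makes the main tropomyosin of fast muscle and heart, and the short tropomyosins of non-muscle cells, and both of its groups of coding starts were open. Its 21 starts fall into 3 clusters on the minus strand of chromosome 9 (build mm10), and 20 of them had a peak in both libraries. The upstream cluster holds 13 starts between 67049118 and 67049406 whose coding transcripts encode 281 to 326 residues, mostly 284. The internal cluster holds 7 starts between 67043709 and 67043962 whose coding transcripts encode 245 to 251 residues. The internal cluster had a peak at chr9:67043881-67044100 with the same ends in both libraries, a density of 11.5 in replicate 1 and 8.80 in replicate 2, and ranks of 99.1 and 99.8. The upstream cluster had a weaker peak, at chr9:67049201-67049500 in replicate 1 with a density of 3.74 and at chr9:67049161-67049520 in replicate 2 with 2.23, and its ranks were 88.9 and 90. In each library the internal peak was thus the stronger of the pair, and the ranks of the clusters did not overlap. The internal peak held 4 footprints in replicate 1 and 5 in replicate 2, and the upstream peak held 4 and 6. Footprints are short stretches inside accessible DNA that were cut less than their surroundings. The remaining start, 67032825, belongs to a noncoding transcript and had no peak in either library.

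The 200 bases upstream of the first start of each Tpm1 cluster are shown because they precede the starts of the long and the short proteins of 1 gene. They are read from GRCm38.p6, the C57BL/6J reference, on the strand of the gene, at chr9:67049407-67049606 (minus strand) for the upstream start and chr9:67043963-67044162 (minus strand) for the internal start. Here and in the sequences that follow, capitals mark matches on either strand to the motifs searched: the E-box CAGCTG bound by myogenic factors, the CArG box of serum response factor, the MEF2 site, the MCAT element CATTCC of TEAD factors, the MEF3 core TCAGGTT, the AP-1 site TGACTCA or TGAGTCA, the GC box GGGCGG, the TATA box TATAAA or TATATA, the RUNX site TGTGGT and the NFI site. Any E-box CANNTG, a set that includes CAGCTG, is in capitals only where it lies inside a footprint of at least 1 library.
Tpm1 upstream start: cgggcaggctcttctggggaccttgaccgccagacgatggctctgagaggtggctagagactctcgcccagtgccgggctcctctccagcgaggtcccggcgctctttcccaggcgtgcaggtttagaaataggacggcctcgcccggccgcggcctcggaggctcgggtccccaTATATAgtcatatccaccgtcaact
Tpm1 internal start: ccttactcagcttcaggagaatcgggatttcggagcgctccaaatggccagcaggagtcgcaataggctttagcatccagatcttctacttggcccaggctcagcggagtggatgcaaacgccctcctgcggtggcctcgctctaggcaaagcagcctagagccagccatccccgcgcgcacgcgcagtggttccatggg
The stretch before the upstream start held a TATA box whose first base lies at -25, counted from the start, and a TATA box occurs in 10.5% of all such 200-base stretches before starts of protein-coding genes. It lay in no footprint of either library. The stretch before the internal start held none of the motifs in capitals. A match is a description of these letters only, and the CAST copy of each region was not read.

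Tpm3 is known for the slow-muscle tropomyosin, whose long proteins begin at the upstream start, and for short cytoskeletal tropomyosins from the internal start. Here the internal starts were open and the upstream starts were closed in both libraries. On the plus strand of chromosome 3, the upstream starts 90072649 and 90072651, of transcripts encoding 284 and 285 residues, had no peak, and no base within 500 bp of them reached the deposited false discovery rate (FDR) of 0.05 in either library. The internal cluster of 5 starts from 90079540 to 90079891, with proteins of up to 248 residues, had a peak at chr3:90079441-90079680 in replicate 1 with a density of 5.91 and at chr3:90079401-90079700 in replicate 2 with 3.48. Its ranks were 93.9 and 94.5, and it held 4 and 6 footprints. A further start at 90080442, of a transcript annotated with 9 coding residues, had peaks of rank 75.7 and 81.0. In all, 6 of the 15 starts of Tpm3 had a peak in both libraries and 9 had none in either, 7 of them the starts of noncoding transcripts in the middle of the gene.

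The 200 bases upstream of the first start of each Tpm3 cluster are shown to set a closed start beside an open one, at chr3:90072449-90072648 and chr3:90079340-90079539 (GRCm38.p6, plus strand).
Tpm3 upstream start: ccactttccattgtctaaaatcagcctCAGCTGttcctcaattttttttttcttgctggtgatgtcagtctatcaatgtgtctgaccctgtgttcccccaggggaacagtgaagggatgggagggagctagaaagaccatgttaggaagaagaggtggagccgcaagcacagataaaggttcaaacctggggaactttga
Tpm3 internal start: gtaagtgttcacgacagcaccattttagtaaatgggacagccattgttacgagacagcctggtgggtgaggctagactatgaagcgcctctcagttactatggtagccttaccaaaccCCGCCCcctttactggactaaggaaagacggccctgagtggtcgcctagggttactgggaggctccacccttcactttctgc
The closed stretch held a CAGCTG E-box at -173, as do 10.9% of all such stretches, and 1 CpG dinucleotide. The open stretch held a GC box at -82, as do 33.9% of all such stretches, which lay inside a footprint of both libraries, and 6 CpG dinucleotides.

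**Figure D2:**
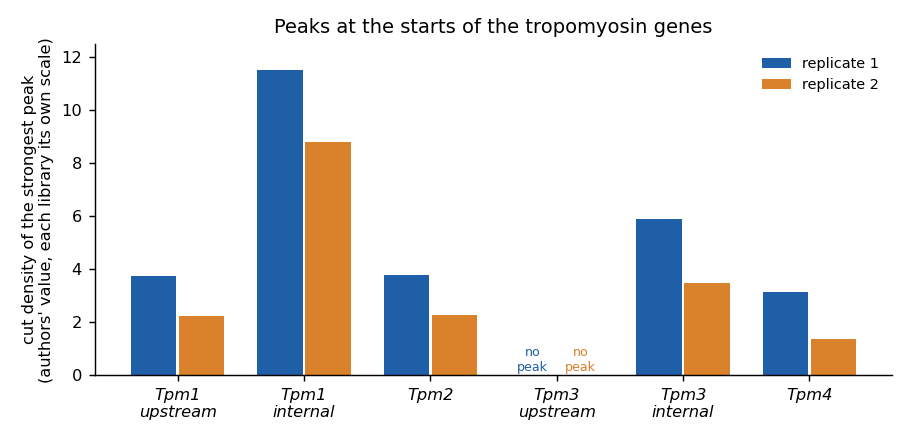
Cut density of the strongest peak (vertical axis, the authors' value, on each library's own scale) at the starts of the tropomyosin genes, with 1 bar for each library. The internal start of Tpm1 has the highest bars, at 11.5 and 8.80, and the upstream start of Tpm3 has no peak in either library.

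Tpm2 makes beta-tropomyosin, of skeletal and smooth muscle, and all 6 of its starts on the minus strand of chromosome 4 had a peak in both libraries. Its 5 upstream starts, between 43523388 and 43523765, shared a peak at chr4:43523421-43523840 in replicate 1 with a density of 3.79 and at chr4:43523421-43523760 in replicate 2 with 2.27, with ranks of 89.1 and 90.2 and 7 footprints in each. A second peak lay just upstream, at chr4:43524061-43524640 over both libraries, with a mean rank of 83.2 ± 1.39 (SD, n = 2) and again 7 footprints in each. A peak in an intron at chr4:43520041-43520240, with the same ends in both libraries, had densities of 3.63 and 2.33 and ranks of 88.5 and 90.5, and its centre was 471 bp from the start of a noncoding Tpm2 transcript. It was therefore as high in rank as the promoter, and in replicate 2 it gave the promoter rank of Tpm2 listed above. It is shown (GRCm38.p6, minus strand) because its CAGCTG E-box lay inside a footprint of both libraries.
Tpm2 intronic peak: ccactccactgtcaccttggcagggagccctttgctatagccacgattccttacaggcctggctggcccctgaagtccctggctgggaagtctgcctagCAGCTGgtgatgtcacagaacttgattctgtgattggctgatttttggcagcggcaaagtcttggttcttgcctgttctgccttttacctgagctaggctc
The 200 bases upstream of the first Tpm2 start held 2 further CAGCTG E-boxes, at -16 and -64, which lay in no footprint of replicate 1. Both lay past the end of the promoter peak of replicate 2, where no footprint was counted.

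Tpm4, a cytoskeletal tropomyosin that is annotated here with a short protein of 248 residues, had 2 starts on the plus strand of chromosome 8, both open. Its promoter peak lay at chr8:72135101-72135340 in replicate 1 with a density of 3.15 and at chr8:72135101-72135400 in replicate 2 with 1.38, with ranks of 86.5 and 82.6. The densities differed by a ratio of 2.29 between the libraries, against a median of 1.48 and a range from 0.813 to 3.29 over the 96 regions near the 10 genes that both libraries called. The peak held 6 footprints in replicate 1 and 1 in replicate 2. A GC box at -35 of the coding start 72135259 lay inside a footprint of both libraries. An intronic peak centred at 1705 bp from the first start ranked 73.2 and 86.7, with 5 and 6 footprints, and is shown over the stretch called in both libraries, chr8:72136561-72136800 (GRCm38.p6, plus strand), because 2 of its E-boxes, CATGTG and CAGCTG, lay inside footprints of both.
Tpm4 intronic peak: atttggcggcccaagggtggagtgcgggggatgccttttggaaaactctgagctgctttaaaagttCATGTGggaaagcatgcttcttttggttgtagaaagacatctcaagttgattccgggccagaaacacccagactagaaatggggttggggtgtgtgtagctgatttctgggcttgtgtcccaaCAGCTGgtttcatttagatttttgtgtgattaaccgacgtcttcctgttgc

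Among the tropomodulins, Tmod3 of the general cytoskeleton had the strongest promoter, Tmod1 of striated muscle and red cells a weaker one, and Tmod4 of skeletal muscle no promoter peak that both libraries called. The Tmod3 peak lay at chr9:75559581-75559760 in replicate 1 with a density of 6.30 and at chr9:75559581-75559740 in replicate 2 with 4.10, with ranks of 94.6 and 95.8 and 3 and 4 footprints. Its 2 starts at this peak were open, and 3 starts further into the gene, one of them of a coding transcript of 107 residues, had no peak in either library. The Tmod1 peak lay at chr4:46039121-46039500 in replicate 1 with a density of 2.21 and at chr4:46039121-46039320 in replicate 2 with 1.47, with ranks of 80.3 and 83.8 and 4 footprints in each. It began downstream of the start 46038935, of the full protein of 359 residues, and within 500 bp of it, and it covered the start 46039209, of a transcript annotated with 47 residues. The 3 internal starts of Tmod1, all noncoding, had no peak.

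The first starts of Tmod4, at 95124476 to 95124515 on the plus strand of chromosome 3, had a peak in replicate 1 at chr3:95124386-95124520 with a density of 0.648, a rank of 35.6 and a lowest FDR of 0.0055. Replicate 2 had no peak there and no base under an FDR of 0.05. A stronger peak lay 734 bp downstream of the first start at chr3:95125121-95125300, with the same ends in both libraries, in an untranslated exon of Tmod4 and 695 bp from the nearest annotated start. Its densities were 2.19 and 1.59, its ranks 80.1 and 85.2, and it held 4 and 2 footprints. It lay outside the promoter of 500 bp, and with 1000 bp on either side of a start Tmod4 had a promoter peak in both libraries at a mean rank of 82.6. The peak held a CAGCTG E-box at chr3:95125213-95125218, inside a footprint of both libraries, which is shown with 10 bases on either side (plus strand).
Tmod4 E-box: ggcgtggagcCAGCTGtgctggcagg

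The leiomodin promoters ranked below those of the tropomyosins. Lmod1, known from smooth muscle, had a peak at chr1:135324641-135324820 in replicate 1 with a density of 1.53 and at chr1:135324641-135324840 in replicate 2 with 1.05, with ranks of 71.4 and 76.5 and 2 and 4 footprints. Lmod2 had the weakest promoter that both libraries called, at chr6:24597641-24597853 with a density of 0.641 and chr6:24597696-24597845 with 0.367, ranks of 35.1 and 31.7, and 0 and 1 footprints. Lmod3, on the minus strand of chromosome 6, had a peak in replicate 2 at chr6:97252821-97253120 with a density of 0.516, a rank of 50.5 and 3 footprints. In replicate 1 it had no peak, and within 500 bp of its start 5 bases lay under an FDR of 0.05, with a lowest value of 0.0391. Lmod2 lay below Lmod1 in rank in both libraries, and Lmod3 in the only library that called it.

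The 200 bases upstream of the Lmod1 start (chr1:135324607-135324806, plus strand) and of the Lmod3 start (chr6:97252760-97252959, minus strand), both from GRCm38.p6, are shown because they set an open start with several motifs beside one that a library missed.
Lmod1 start: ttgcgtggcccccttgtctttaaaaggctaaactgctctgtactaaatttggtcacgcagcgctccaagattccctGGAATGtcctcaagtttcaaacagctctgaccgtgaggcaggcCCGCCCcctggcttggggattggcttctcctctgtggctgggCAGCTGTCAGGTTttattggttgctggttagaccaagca
Lmod3 start: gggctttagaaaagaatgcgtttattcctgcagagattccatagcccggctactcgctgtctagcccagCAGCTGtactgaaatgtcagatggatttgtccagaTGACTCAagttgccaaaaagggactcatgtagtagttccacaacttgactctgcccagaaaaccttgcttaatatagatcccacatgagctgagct
The Lmod1 stretch held an MCAT element at -124, a GC box at -81, a CAGCTG E-box at -39 and, directly after it, a MEF3 core at -33. The GC box lay inside a footprint of both libraries, and the other matches lay inside none. An MCAT element occurs in 8.75% and a MEF3 core in 2.60% of all such stretches. The Lmod3 stretch held a CAGCTG E-box at -131 and an AP-1 site at -96, the latter present in 3.09% of all such stretches. Neither lay inside a footprint of replicate 2. Replicate 1 had no peak there, so none of its footprints could be counted. The 200 bases before the Lmod2 start held none of these motifs. Centred 11 bp past that start lies a CAGCTG E-box, chr6:24597771-24597776, which lay inside a footprint of replicate 2 alone and is shown with 10 bases on either side (plus strand).
Lmod2 E-box: ctcctcacacCAGCTGctgaccagcc

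Taken start by start, 40 of the 63 starts had a peak within 500 bp in both libraries, against 51.8% of all starts of protein-coding genes. Of the others, 4 had a peak in 1 library and 19 in neither, and 16 of those 19 are starts of noncoding transcripts. Bases under an FDR of 0.05 lay within 500 bp of 41 starts in both libraries, against 53.2% of all starts. The open starts were mostly rich in CpG dinucleotides. All starts of protein-coding genes were put into 10 classes of equal size by the ratio of observed to expected CpG in the 500 bp on either side. In the upper 5 classes, 37 of 40 starts of the 10 genes had a peak in both libraries, against 91.4% of all starts in these classes. In the lower 5 classes, 3 of 23 had one, 4 had one in a single library and 16 in neither, against 12.2% of all starts with a peak in both. The 3 open starts of the lower classes were those of Lmod1 and Lmod2, with CpG ratios of 0.331 and 0.353, and the noncoding start of Tpm2, with 0.342. The closed upstream starts of Tpm3 had a ratio of 0.132, in the lowest class, where 3.22% of all starts were open, and its first internal start had 0.698, in a class where 96.6% were. The count for the 10 genes was thus close to that of all starts with like CpG content. Nearby starts share 1 peak, so the 63 starts are not independent.

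**Figure D3:**
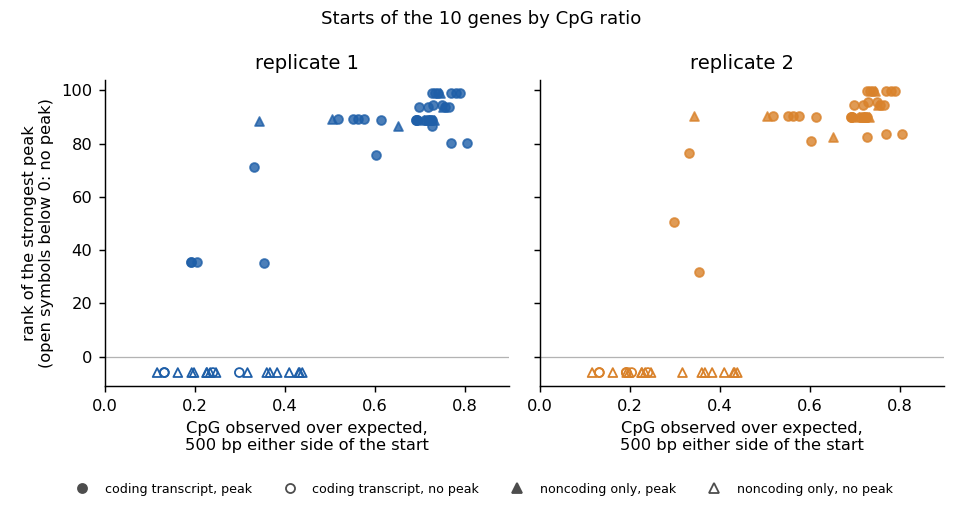
Each annotated start of the 10 genes by its CpG ratio (horizontal axis) and the rank of the strongest peak within 500 bp (vertical axis, percentile within the library), for replicate 1 (left) and replicate 2 (right), with circles for coding and triangles for noncoding starts and open symbols below 0 for starts without a peak. Starts at a ratio of 0.506 and above all have a peak in both libraries, and the starts without a peak lie at 0.439 or below.

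By the median, the surroundings of the genes held more peaks than those of the typical gene, though this did not hold for each gene. The median number of peaks within 50 kb of any start was 9 per gene in replicate 1 and 11 in replicate 2, against medians of 7 and 9 over all protein-coding genes. In replicates 1 and 2, 99.2% and 93.2% of protein-coding genes had fewer peaks than Tpm2. For Lmod1 the shares were 48% and 49.6%, and for Tpm4 and Lmod2 alike they were 41.3% and 38.4%. For shared distal peaks, those over 1 kb from every annotated start and called in both libraries, the median was 4.5 per gene in each library, against 2. Genes with many annotated starts cover a longer window, which was not corrected. Many of these peaks lie at other genes: 51 of the 131 peaks in replicate 1 and 53 of the 134 in replicate 2 had their nearest annotated start in one of the 10 genes. By mean rank the strongest peaks in the windows were such neighbours, the Rab8a promoter at 26155 bp from the Tpm4 start with 99.8 and the Uba3 promoter at 47039 bp from the Lmod3 start with 99.7. In replicate 2 alone the internal peak of Tpm1, with a density of 8.80, stood above both.

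**Figure D4:**
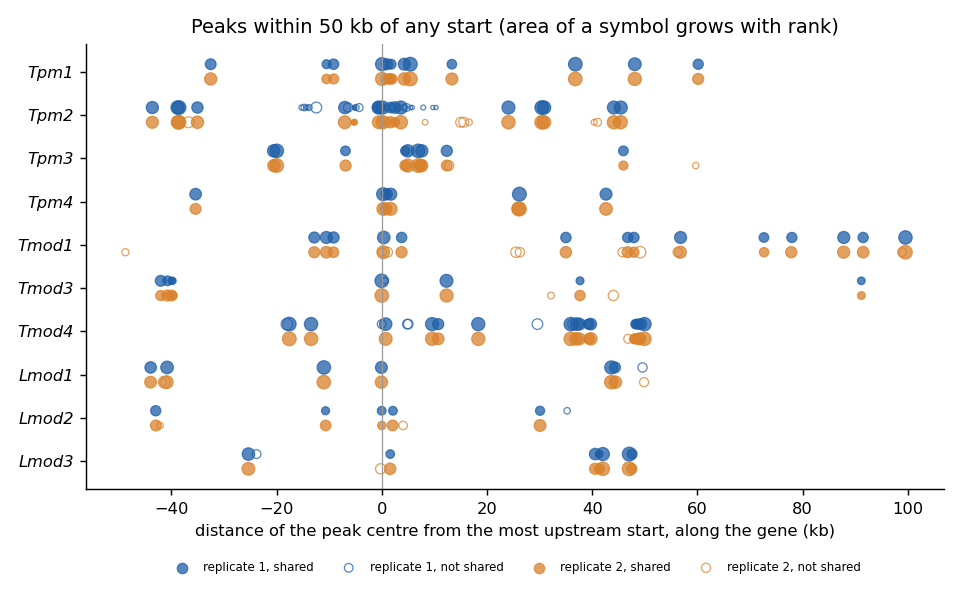
Peaks within 50 kb of any start of each gene by the distance of their centre from the most upstream start along the gene (horizontal axis, kb), with 1 row of symbols for each library, filled where the other library has an overlapping peak, and with an area that grows with rank. Tpm1, with 9 shared distal regions, and Tmod1, with 11, have the most, and Tpm2 has a run of small open symbols of replicate 1 around its start.

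Of the 50 distal regions called in both libraries, the strongest near a tropomyosin lay 36786 bp downstream of the first Tpm1 start, between genes at chr9:67012541-67012700 in replicate 1 and chr9:67012541-67012720 in replicate 2. Its densities were 7.30 and 4.01, its ranks 95.9 and 95.7, and it held 2 and 3 footprints. It ranked higher in each library than the upstream promoter of Tpm1. Distances here count from the most upstream start along the gene, with upstream positions negative. Other distal regions of Tpm1 lay at 48086 bp, with ranks of 83.5 and 89.5, and in an intron at 4266 bp, with ranks of 72.0 and 79.0. Near Tpm2, regions between genes at 45425 bp and 44105 bp had mean ranks of 88.0 ± 2.86 and 87.6 ± 3.92, and one at -7025 bp had 80.8 ± 5.26 (SD, n = 2 each).

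Tpm3 had its strongest distal region in an intron between its closed and its open starts, at 4941 bp, with ranks of 77.7 and 86.3 and 3 and 4 footprints. It is shown over the stretch called in both libraries, chr3:90077521-90077660 (GRCm38.p6, plus strand), because an E-box CACCTG lay inside a footprint of both libraries and an MCAT element inside one of replicate 1.
Tpm3 intronic peak: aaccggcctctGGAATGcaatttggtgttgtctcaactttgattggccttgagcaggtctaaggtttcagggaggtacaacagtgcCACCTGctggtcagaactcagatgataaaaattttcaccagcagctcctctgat
A second intronic region of Tpm3, at 12351 bp, had a mean rank of 59.9 ± 2.34, and one at -6900 bp, in the untranslated exon of 4933434E20Rik, had 52.5 ± 11.1 (SD, n = 2 each). Besides the intronic region shown above, Tpm4 had a distal region at 42615 bp, in an intron of Rab8a, with a mean rank of 76.8 ± 7.17 (SD, n = 2).

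Tmod1 had 11 shared distal regions, the most of the 10 genes, with mean ranks from 43 to 73.9. The strongest lay at 87805 bp in an intron of Tstd2, with ranks of 73.4 and 74.4, at 56785 bp in an intron of Tmod1, with 72.7 and 74.6, and at -10535 bp in an intron of Tdrd7, with 73.8 and 68.8. The region in the Tmod1 intron is shown over the stretch called in both libraries, chr4:46095621-46095800 (GRCm38.p6, plus strand), because 1 of its 2 CAGCTG E-boxes, the second in the line, lay inside a footprint of both libraries.
Tmod1 intronic peak: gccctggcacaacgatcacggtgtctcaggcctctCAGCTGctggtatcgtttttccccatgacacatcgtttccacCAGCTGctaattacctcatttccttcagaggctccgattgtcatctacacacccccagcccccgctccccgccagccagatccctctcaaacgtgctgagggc
Tmod3 had an intronic region at 12297 bp with ranks of 85.1 and 88.0, and a pair of regions in introns of Tmod2, the neuronal tropomodulin, at -40723 and -42013 bp, each with a mean rank of 53.4. Near Tmod4 the strongest distal region lay between genes at 49924 bp, with ranks of 91.5 and 90.9, followed by one in an intron of Sema6c at 37524 bp with 72.7 and 75.5 and one in an intron of Lysmd1 at 10724 bp with 61.3 and 69.2.

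Near Lmod1 a region between genes at 43613 bp, past the end of the gene, had ranks of 88.5 and 93.1 and was stronger than the promoter in each library, and a second at 44323 bp had 59.3 and 77.5. Lmod3 had a region at -25341 bp, between genes, with ranks of 78.9 and 83.5, above its own promoter, a region in an intron of Arl6ip5 at 40549 bp with 66.3 and 62.2, and an intronic region at 1609 bp with 34.0 and 66.0. The distal regions of Lmod2 were weaker: one in an intron of Asb15 at -42962 bp had ranks of 50.6 and 58.5, one in its own intron at 2121 bp had 35.1 and 57, and one at -10684 bp had 28.5 and 54.7. Which gene a distal region acts on was not measured.

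The libraries called near the 10 genes with like frequency, although replicate 2 called more peaks in all. In replicate 1, 100 of the 131 peaks near the genes (76.3%) shared 1 bp or more with a peak of replicate 2, against 79.6% of all its peaks. In replicate 2, 103 of the 134 (76.9%) did, against 60.8% of all its peaks. Tpm2 stood apart from the other 9 genes: replicate 1 called 37 peaks there and replicate 2 called 26, and 17 of each were shared. The 20 peaks of replicate 1 alone had ranks from 2.34 to 57.7 with a median of 7.08, and 11 of them ranked under 10. Of these 20, 8 lay within Tpm2 and 6 within its neighbour Tln1, which encodes the adhesion protein talin. Their median GC content was 52.8%, against 60.5% in the shared peaks of replicate 1 near Tpm2. Over all peaks of replicate 1, the median rank was 14.04 in unshared and 59.6 in shared peaks. Median GC content there was 56.67% in unshared and 57.14% in shared peaks. Without Tpm2, 88.3% of the 94 peaks of replicate 1 and 79.6% of the 108 peaks of replicate 2 were shared. Tmod1 showed the opposite count, with 14 peaks in replicate 1, all of them shared, and 23 in replicate 2, and Tmod4 had 7 unshared peaks in replicate 1 and 1 in replicate 2.

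**Figure D5:**
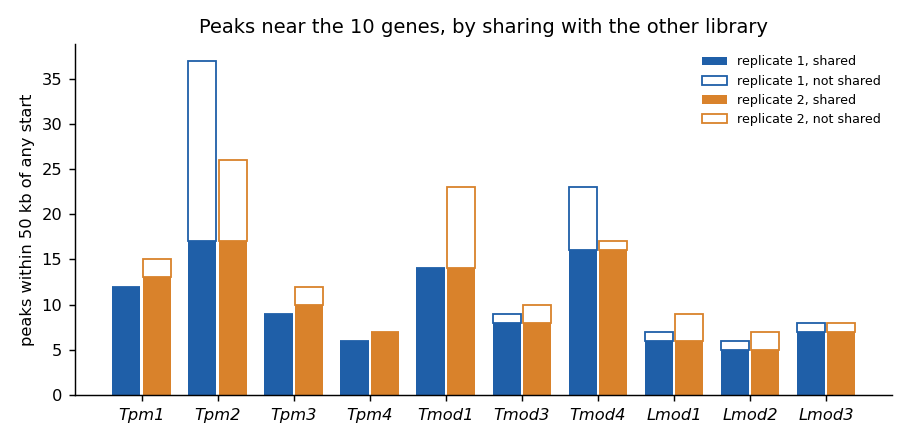
Number of peaks within 50 kb of any start of each gene (vertical axis), with 1 bar for each library, filled for peaks that overlap a peak of the other library and open for the rest. Replicate 1 has 20 unshared peaks near Tpm2, and replicate 2 has 9 near Tpm2 and 9 near Tmod1.

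The peaks of the 10 genes held 2.12 footprints per peak in replicate 1 and 2.84 in replicate 2, slightly above the 1.94 and 2.31 over all peaks. Their median ranks, 57.5 and 62.7, also lay above the middle of the scale from 0 to 100, and peaks of like rank were not compared. In the 96 shared regions, 39 matches to the CAGCTG E-box lay in 31 regions. Of these matches, 5 lay inside a footprint of both libraries: those in introns of Tpm2, Tpm4 and Tmod1 shown above, the one in the Tmod4 exon, and one in the region at 49924 bp from the Tmod4 start. Any E-box CANNTG gave 127 matches, 14 of them inside a footprint of both libraries, and the GC box gave 80, with 13. The RUNX site gave 14 matches with 2 in footprints of both. No match of the CArG box, the MEF2 site, the MCAT element, the MEF3 core, the AP-1 site or the TATA box lay inside a footprint of both libraries, out of 3, 4, 13, 3, 4 and 11 matches, and the NFI site had 0 matches. Regions here span the peaks of both libraries, but a footprint counted only inside a peak of its own library. A match outside the peak of 1 library, such as the MEF2 site in the Tmod1 promoter region, could therefore not count in both.

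By peak, the CAGCTG E-box occurred in 25.2% of the peaks near the genes in replicate 1 and 28.4% in replicate 2, against 21.7% and 21.8% of all peaks. The CArG box occurred in 3 peaks in each library, 2.29% and 2.24% of those near the genes, against 0.638% and 0.756% of all peaks. In the shared regions its 3 matches lay upstream of Tpm2 at -618 bp, in the Tpm4 intron and in an intron of Tln1. The MEF2 site occurred in 4 and 3 peaks, 3.05% and 2.24%, against 0.767% and 1.06%, and the TATA box in 12 and 10, 9.16% and 7.46%, against 3.38% and 4.59%. The GC box occurred in 25.2% and 26.9%, against 24.5% and 20.4%, and the AP-1 site in 3.05% and 3.73%, against 3.69% and 4.25%. The MCAT element occurred in 7.63% and 11.9%, against 9.92% and 11.2%, and the RUNX site in 7.63% and 12.7%, against 10.1% and 11.6%. The MEF3 core occurred in 3.82% and 2.24%, against 1.96% and 2.25%, and any E-box CANNTG in 64.9% and 65.7%, against 61.6% and 63.4%. The NFI site occurred in 0 peaks near the genes, against 0.113% and 0.139% of all peaks. These are counts of letters in peaks of unequal width, and footprint counts move with the depth of a library.

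The other genes of the thin filament, from a list of 32, chosen with results of these data known, that includes actins, troponins, nebulin, capping proteins and Kelch proteins, had a promoter peak in both libraries in 24 cases, again against 65.2% of all protein-coding genes. They had one in neither in 4 cases, and the median mean rank of the 24 was 81.3. Among the actins, cytoskeletal Actb had a mean rank of 99.6 ± 0.00148 and sarcomeric Acta1 71.9 ± 4.03 (SD, n = 2 each). Neb, which encodes the long filament protein nebulin, had 56.8 ± 4.04 (SD, n = 2). Of the slow-muscle troponin genes, Tnni1 had 79.5 ± 0.415 and Tnnt1 80.7 ± 5.47 (SD, n = 2 each), and Tnnc1, shared with the heart, had no promoter peak in either library. Of the fast-muscle troponin genes, Tnni2 had 63.7 ± 6.60 (SD, n = 2), and Tnnt3 and Tnnc2 had peaks in replicate 1 alone, with ranks of 54.8 and 47.7. Tmod2, the tropomodulin outside the 10 genes, had 77.3 ± 1.97 (SD, n = 2). Markers of cell types open in both libraries were also counted, beside the same 65.2% of all protein-coding genes. They were 9 of 10 skeletal muscle genes, 8 of 8 smooth muscle and pericyte genes and 6 of 6 fibroblast genes. Endothelial cells had 5 of 6, Schwann cells 2 of 4, heart muscle 1 of 6, erythroid cells 2 of 6 and macrophages 0 of 4. Smooth muscle and fibroblast genes were open at least as often as skeletal muscle genes, so these counts cannot check the tissue label. The part of each cell type in the peaks of Tpm4, Tmod3 and Lmod1 was not tested.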

How the data were processed

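DNase-seq libraries of 2 biological replicates of 1 group were used. Per the labels, peaks, footprints and false discovery rates were made for each library on mm10; which aligner and callers made them is not given in the sources used. The deposited peak lists give a cut density per peak, a signal whose scaling is not stated: its values are whole multiples of 0.00675 in replicate 1 and 0.00333 in replicate 2 (100% of densities under 1, within 0.1 of a step), so densities were ranked within each library. The deposited FDR lists give a false discovery rate, used as a q-value, for stretches of bases, all at or below 0.05. The authors' footprint lists hold 0.01 in every entry, a score of unstated meaning, and their intervals alone were used. The depth in reads is unknown.

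The longer of 2 peak lists per library was used, with 94295 and 123291 peaks of 180 bp median width. Peaks within 50 kb of any GENCODE vM21 start of the 10 genes were kept, and a peak was shared where it overlapped one of the other library by 1 bp. No filter on low values was applied. Motifs were read from GRCm38.p6 on both strands. All 10 genes are named, each with its strongest shared distal regions, at most 3, which lie over 1 kb from every start; other genes are named where a region lies in them or at their start, or from the lists. The genes and lists were chosen with earlier results of these data known. Scripts (Python 3.11.15, numpy 2.4.6, pandas 2.3.3, matplotlib 3.10.9) were tested on simulated data. Alternatives covered the peak list, the promoter width, the window, the overlap, the start used and each library left out.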

Additional observations from a re-analysis of the deposited data

How the results depend on the processing

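The 132.5 peaks per library became 94 with the shorter lists, 78.5 with a window of 25 kb, 213 with 100 kb and 52 when the nearest start had to belong to one of the 10 genes, and the 329 footprints per library became 271.5, 180.5, 518 and 126. The share of peaks called in both libraries, 76.6%, became 75.3% with the shorter lists, 78.5% with the same number of strongest peaks from each library and 65.3% with an overlap of 50%. The median promoter rank of 87.2 became 82.6 with the shorter lists, 84.5 with 1000 bp either side and 84.5 with the most upstream start alone. With 1 library left out it ran from 83.8 to 86.5. The median is over the genes with a promoter peak under each setting, so its genes changed as well. They were 8 in the main setting and 9 with either library left out, where Lmod3 (without replicate 1) or Tmod4 (without replicate 2) joined. The 29 motif matches inside a footprint of both libraries became 52 where touching a footprint was enough. With 1 library left out, matches inside a footprint of the remaining library alone were counted, in all its peaks near the genes, and ran from 37 to 52. Both rules are looser than the main one, so these counts could not fall. Genes with a promoter peak in both libraries were 7 with the shorter lists, which lost Lmod2, 7 with the most upstream start alone, which lost Tpm3, and 9 with 1000 bp, which gained Tmod4. The order of the genes changed too: the most upstream start alone gave Tpm1 a rank of 89.5, below Tmod3 with 95.2 and Tpm2 with 89.7, and 1000 bp gave Tmod4 82.6, above Tmod1 with 82.1 and Lmod1 with 74. Ranks with the shorter lists were taken among 54532 and 73623 peaks in place of 94295 and 123291. Beyond these changes in the rules and in the genes and peaks counted, the causes of these shifts were not tested. No paired analysis was possible because there is 1 group and no groups were compared.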
